A study of Mus musculus with 8 samples.

Results

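The transcription factor p53 and 8 of its best-known target genes were followed in mouse erythroid progenitors, the cells that mature into erythrocytes. The 9 genes (Trp53, Mdm2, Ccng1, Cdkn1a, Gadd45a, Trp53inp1, Eda2r, Bbc3 and Bax) were taken from a list of p53 pathway genes and matched by Ensembl ID to the 37620 genes that were counted. All 9 passed the filter on low counts and so stood among the 15355 genes tested. The cells came from the livers of C57BL/6 embryos at E14.5, were purified by magnetic sorting, were transduced with hairpins or vectors, and differentiated in medium with erythropoietin for 24 h. The 8 libraries of RNA depleted of ribosomal RNA formed 6 groups. For Bloodlinc, a long noncoding RNA, 2 hairpins with 1 library each were set against 1 control hairpin library. Knockdown of hnRNPU, a nuclear RNA-binding protein, had 2 hairpins and a control hairpin library of its own. Overexpression of Bloodlinc from a vector had 1 library, with 1 empty vector library beside it. The labels do not say whether the libraries came from separate cultures or pools of embryos, nor whether transduced cells were selected, so a p-value here reflects the spread among these particular libraries alone, and the 2 libraries of a knockdown carry different hairpins.

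In unstressed cells p53 is kept scarce by MDM2, which marks it for degradation, and DNA damage or disturbed ribosome production frees it to switch on genes that halt the cell cycle or start cell death. Its activity is therefore read mainly from the RNA of its targets, since the protein is controlled after translation and Trp53 RNA can stay level while targets move. In the erythroid lineage p53 activation is known above all from defects of ribosome assembly, in which precursor cells arrest or die and anaemia follows.

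Trp53 (ENSMUSG00000059552; chromosome 11, 69580359 to 69591873, plus strand, on GRCm38) encodes p53 itself. Mdm2 (ENSMUSG00000020184; chromosome 10, 117688875 to 117710758, minus strand) encodes the ubiquitin ligase that closes the feedback loop. Ccng1 (ENSMUSG00000020326; chromosome 11, 40748552 to 40755311, minus strand) encodes cyclin G1, which acts with a phosphatase on MDM2. Cdkn1a (ENSMUSG00000023067; chromosome 17, 29090976 to 29100727, plus strand) encodes p21, the inhibitor of cyclin-dependent kinases that carries out p53-dependent arrest. Gadd45a (ENSMUSG00000036390; chromosome 6, 67035096 to 67037457, minus strand) encodes a stress protein of cell cycle arrest and DNA repair. Trp53inp1 (ENSMUSG00000028211; chromosome 4, 11156431 to 11174379, plus strand) encodes a nuclear protein that promotes p53 activity and cell death. Eda2r (ENSMUSG00000034457; chromosome X, 97333840 to 97377216, minus strand) encodes a receptor of the tumour necrosis factor receptor family that binds ectodysplasin A2. Bbc3 (ENSMUSG00000002083; chromosome 7, 16308393 to 16318205, plus strand) encodes PUMA, a BH3-only activator of apoptosis. Bax (ENSMUSG00000003873; chromosome 7, 45461697 to 45466898, minus strand) encodes the protein that permeabilises mitochondria. These positions come from GENCODE M21, whereas the reads had been aligned to mm9.

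The promoters are shown because p53 acts on its targets through a DNA sequence that can be searched for in them. Sites elsewhere in or around the genes were not searched. RefSeq windows on GRCm38.p6 were at hand for 8 of the 9 genes (11 windows, none for Trp53inp1), and the 250 bases upstream of each annotated start were searched for the p53 consensus decamer, a palindromic 10-base motif of which p53 sites hold a pair that reads alike on both strands. It was present for 6 genes, namely Trp53, Mdm2, Ccng1, Cdkn1a, Gadd45a and Bax, and absent from the windows of Eda2r and Bbc3. Counted by window, it was in 6 of the 11 windows of these genes and in 2341 (7.126%) of all 32851 mouse windows. Cdkn1a alone among the 8 genes with a window had a pair of decamers at most 13 bases apart, an arrangement found in 21 windows (0.064%). The pair lay in window 1 of Cdkn1a. Its window 2, before another annotated start (chr17:29093519-29093768), held no decamer. Among 63 further p53 pathway genes with a window, 10 held a decamer. A match of letters is a description of the window, and p53 binding was not measured here. The stretches around the decamers, in capitals, are printed 5′ to 3′ on the strand of the gene for 5 of the 6 genes. The stretch of Gadd45a is left out because 45 of its 60 bases overlap an annotated exon.
Cdkn1a, chr17:29090881-29090962, plus strand, decamers beginning 73 and 51 bases before the start: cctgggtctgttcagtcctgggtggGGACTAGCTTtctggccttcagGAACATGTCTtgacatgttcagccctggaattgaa
Mdm2, chr10:117710910-117710969, minus strand, 186 bases before the start: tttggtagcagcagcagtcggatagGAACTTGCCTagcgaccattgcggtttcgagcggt
Ccng1, chr11:40755437-40755496, minus strand, 185 bases before: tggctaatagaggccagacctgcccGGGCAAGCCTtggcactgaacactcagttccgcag
Bax, chr7:45467065-45467124, minus strand, 201 bases before: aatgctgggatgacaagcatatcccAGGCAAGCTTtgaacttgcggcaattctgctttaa
Trp53, chr11:69580259-69580318, plus strand, 75 bases before: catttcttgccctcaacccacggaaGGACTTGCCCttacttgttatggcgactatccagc

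Depth differed sharply between libraries. Counts in genes ran from 23682993 to 34540691 in 6 libraries, but were 2931627 and 2612916 with hnRNPU hairpins 1 and 2. In that pair 89.7% and 86.6% of uniquely placed counts fell outside genes, against 21.7% to 30.1% elsewhere. Levels below are CPM, counts scaled to a library's total, after TMM scaling, on which 3 counts are worth between 0.0655 and 1.77 CPM, so the 9 genes, with at least 47 counts in any library, were well above the floor. Summed CPM of 10 erythroid markers ran from 11630 to 52240, and none of the 10 was at 0 in any library. The targeted RNAs were lower with their hairpins without passing the test: Bloodlinc was 4.46 CPM with the control hairpin and 2.19 and 1.75 with its hairpins, and Hnrnpu was 588 CPM against 325 and 373. Hnrnpu was lower still in the Bloodlinc set, at 290.1 CPM with the Bloodlinc control hairpin and 294 and 214 with the Bloodlinc hairpins. Bloodlinc was 4.36 CPM with the hnRNPU control hairpin and 1.18 and 3.15 with the hnRNPU hairpins, on 2 and 8 counts. Bloodlinc reached 5.46 CPM with its vector, against 1.26 with the empty one. Fewer cells of a type and less RNA per cell cannot be told apart in these bulk samples.

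All 9 genes were readily detected in the 3 control libraries. To compare genes with each other, CPM was divided by exon length, giving CPM per kilobase. Gadd45a was the most abundant on that scale, at 410.0 CPM per kilobase in the median control (range 193 to 424), and Ccng1 followed at 134 (128 to 135). A middle group of Trp53inp1 (median 43.7), Mdm2 (39.5), Bax (35.9), Cdkn1a (29.3), Bbc3 (28.2) and Trp53 (19.8) had ranges that overlapped from each gene to the next, so their order is not fixed. Eda2r was lowest at 5.93 (5.17 to 6.15), below every control value of Trp53. The same ends of the order were seen with the hairpins and vectors, with 1 exception. Gadd45a was highest per kilobase in 7 of the 8 libraries, and with Bloodlinc hairpin 2 Ccng1 stood above it, at 321 against 131 CPM per kilobase.

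**Figure D1:**
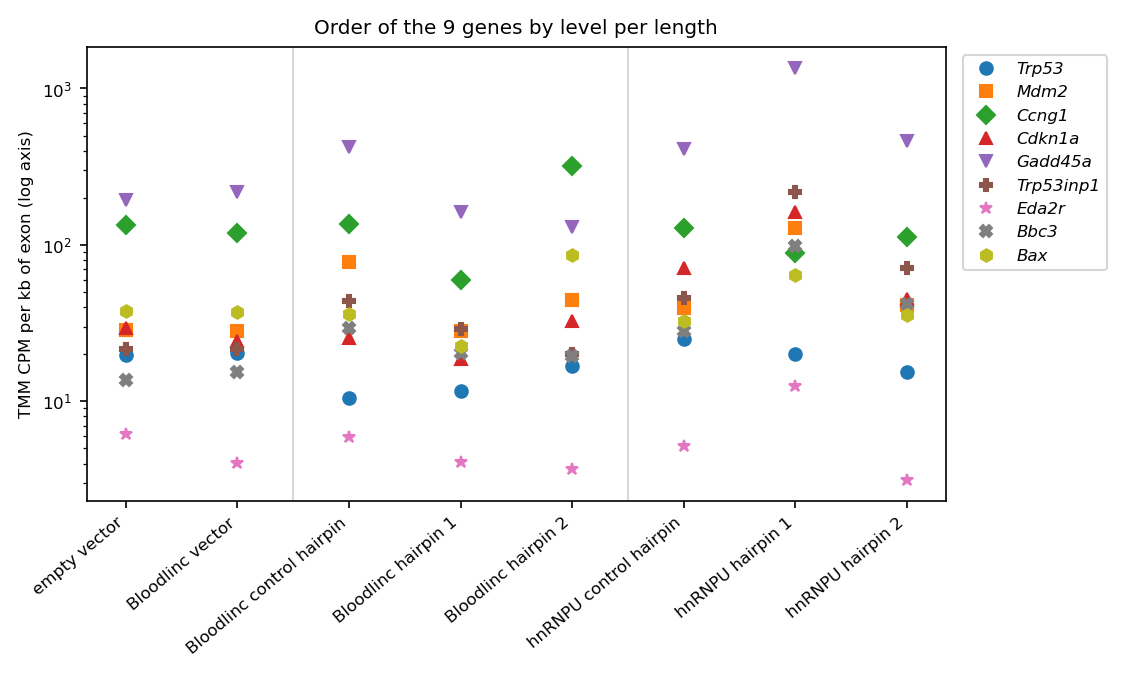
Levels of the 9 genes per kilobase of exon (log axis, CPM per kilobase) in each of the 8 libraries, 1 point per library. Gadd45a lies at the top and Eda2r at the bottom, and the genes between Trp53inp1 and Trp53 overlap in the 3 controls.

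The control libraries themselves were far apart for some of these genes. Cdkn1a was 89.7 CPM with the Bloodlinc control hairpin, 104 with the empty vector and 254 with the hnRNPU control hairpin. Trp53 was 42.2, 80.0 and 101 CPM in the same order, and Mdm2 was 393, 145 and 201. The highest and lowest controls thus differed 2.83-fold for Cdkn1a, 2.40-fold for Trp53 and 2.72-fold for Mdm2. Gadd45a (341 to 748 CPM), Trp53inp1 (141 to 295) and Bbc3 (28.8 to 62.8) were lowest with the empty vector, each about as high in one control hairpin library as in the other. Ccng1 (449.7 to 474 CPM), Bax (51.3 to 59.3) and Eda2r (30.5 to 36.2) varied little between controls. Between the control hairpins 2 of the 9 genes, Cdkn1a and Trp53, were past 2-fold, where 32.8% of all genes were. Against the empty vector 4 of 9 were past 2-fold for either control hairpin, where 50.7% of all genes (Bloodlinc control hairpin) and 26.1% (hnRNPU control hairpin) were. Each knockdown is therefore read against its own control.

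**Figure D2:**
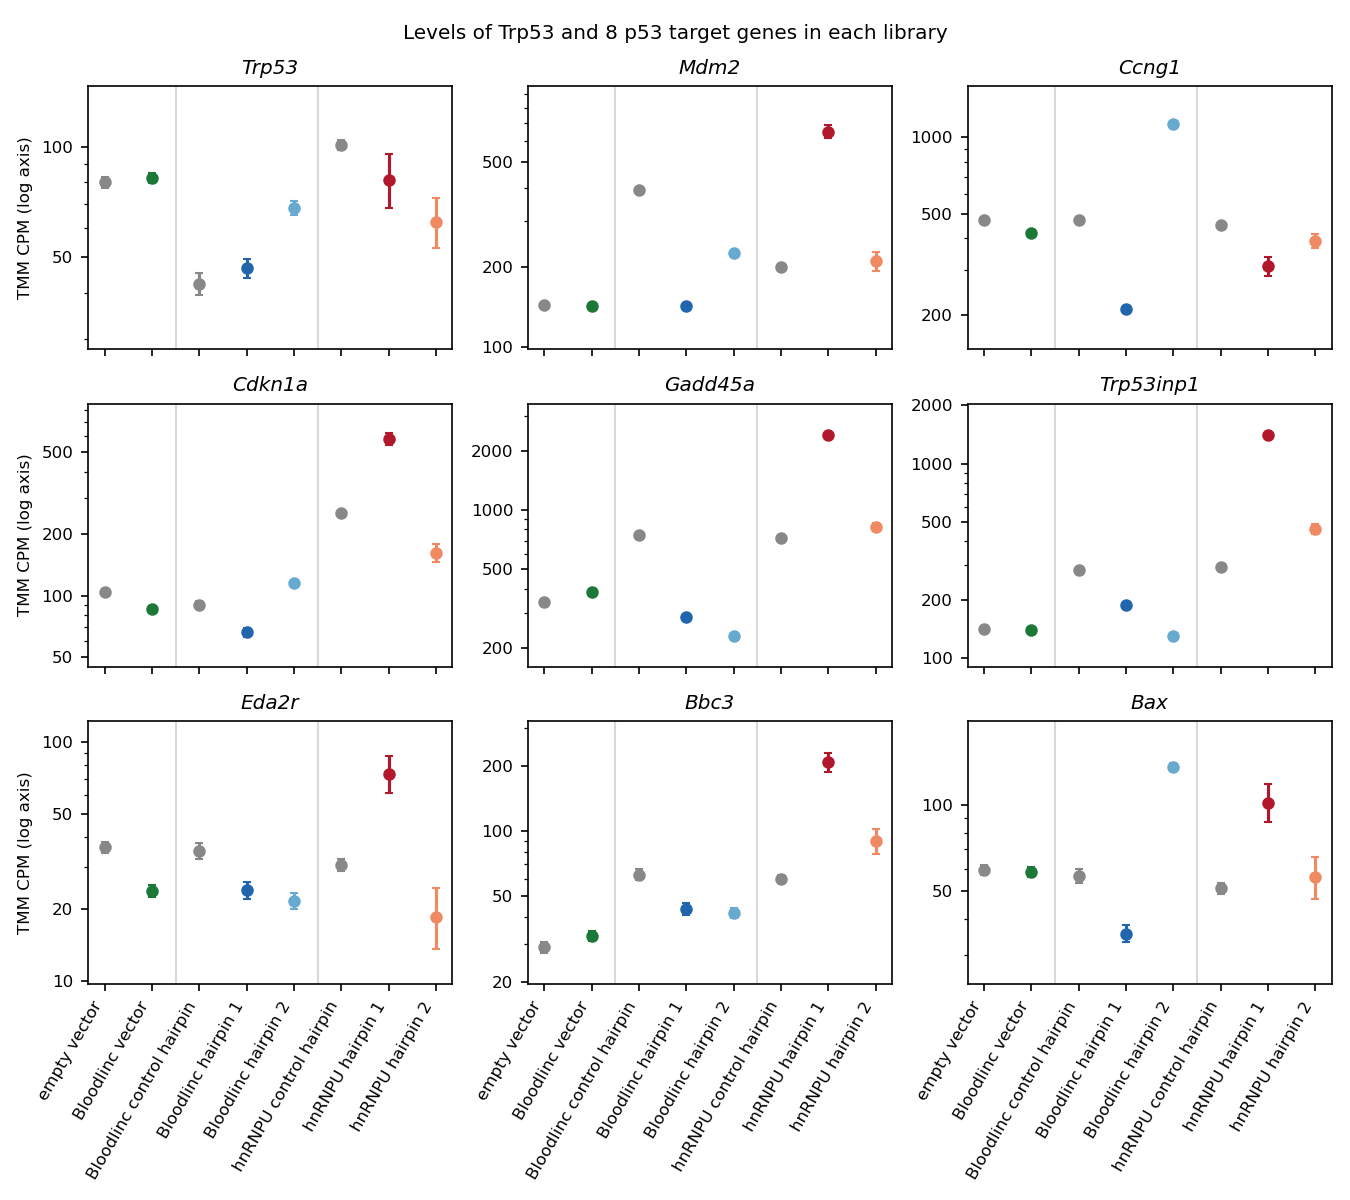
TMM-scaled CPM (log axis) of each of the 9 genes in the 8 libraries, 1 point per library, coloured by group. The hnRNPU hairpin 1 library holds the highest value of Mdm2, Cdkn1a, Gadd45a, Trp53inp1, Eda2r and Bbc3, and Bloodlinc hairpin 2 the highest of Ccng1 and Bax.

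Knockdown of Bloodlinc asked which genes depend on this noncoding RNA. With both hairpins 5 of the 9 genes, Mdm2, Gadd45a, Trp53inp1, Eda2r and Bbc3, were below the control, Trp53 was slightly above it, and Ccng1, Cdkn1a and Bax lay on opposite sides with the 2 hairpins. None of the 9 passed edgeR's quasi-likelihood test at an adjusted p of 0.05, which called 0.124% of all genes (15 higher and 4 lower), and none passed with DESeq2 or limma-voom. With SEs of 0.53 to 0.62 on the log2 scale, missing the threshold does not show that a gene did not differ. An unadjusted p under 0.05 was reached by 1 of the 9, Gadd45a, on the lower side, where 1.26% of all genes were lower and 2.73% higher at that level. For comparison, 30.7% of all genes were on the lower side with both hairpins and 31.5% on the higher side. Fitted values were above 0 for 4 of the 9 and for 53.5% of all genes. With hairpin 1, 3 of the 9 (Mdm2, Ccng1 and Gadd45a) were more than 2-fold lower and none was higher, where 7.3% and 7.4% of all genes were. With hairpin 2, 2 were more than 2-fold higher (Ccng1 and Bax) and 2 lower (Gadd45a and Trp53inp1), where 15.7% and 10% of all genes were.

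Trp53 itself was 42.2 CPM with the control hairpin and 46.7 and 68.3 with Bloodlinc hairpins 1 and 2. Both values lay above the matched control and inside the range of the 3 controls. In the fit the log2 fold change came to 0.45 (SE 0.55, edgeR adjusted p = 1).

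Of the feedback genes, Mdm2 was 393 CPM in the control and 143 and 227 with the hairpins. Both hairpins were lower, by 1.47 and 0.80 on the log2 scale in size, but the matched control was the highest of the 3 controls and hairpin values lay on both sides of the other two. EdgeR fitted a log2 fold change of -1.09 (SE 0.56, edgeR adjusted p = 1). Ccng1 stood at 474 CPM with the control hairpin, at 210.4 with hairpin 1 and at 1126 with hairpin 2. Ccng1 thus lay more than 2-fold below the control with one hairpin and more than 2-fold above it with the other. The log2 differences were -1.17 (95% counting interval -1.22 to -1.12) and 1.25 (1.22 to 1.28), and the hairpin mean of 668 ± 648 CPM (SD, n = 2) carries no common direction.

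Of the arrest genes, Gadd45a gave the clearest difference. It was 748 CPM in the control and 288 and 230.4 with the hairpins. Both hairpins were below all 3 controls. Both were also more than 2-fold below their own control, a condition that 2.66% of all genes met on the lower side and 3.77% on the higher. Its fitted log2 fold change was -1.53 (SE 0.60, unadjusted p = 0.0111, edgeR adjusted p = 0.795). A noncoding gene on the opposite strand, E230016M11Rik, overlaps 337 bases of Gadd45a exons. It was counted at 2.01 to 8.69 CPM, far below Gadd45a in every library, though the strand setting used for counting is not given in the sources used here. Cdkn1a stood at 89.7 CPM with the control hairpin, at 66.2 with hairpin 1 and at 115 with hairpin 2, on either side of the control. Its fitted log2 fold change was 0.02 (SE 0.57, edgeR adjusted p = 1), and it turned to -0.02 with DESeq2's size factors.

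Of the genes tied to cell death, Trp53inp1 was 283 CPM in the control and 187 and 130.4 with the hairpins. Eda2r was 35.0 CPM against 24.0 and 21.6, and Bbc3 62.8 against 43.3 and 41.6. The hairpins were close to each other for Eda2r and Bbc3, and for Eda2r they lay below all 3 controls, as Gadd45a did; 11.3% of all genes did so. The fitted log2 fold changes were -0.84 (SE 0.58) for Trp53inp1, -0.62 (SE 0.54) for Eda2r and -0.56 (SE 0.53) for Bbc3, each with an edgeR adjusted p of 1. Bax stood at 56.6 CPM with the control hairpin, at 35.7 with hairpin 1 and at 136 with hairpin 2. Its hairpins parted in the same way as those of Ccng1, with log2 differences of -0.67 (95% counting interval -0.80 to -0.54) and 1.26 (1.17 to 1.36). The median fitted log2 fold change of the 9 genes was -0.56, and that of all genes 0.06. Summed erythroid markers moved beside these values, at 52240 CPM in the control and 30400 and 23500 with the hairpins. All 10 markers had a fitted value below 0, none passing. Summed neutrophil markers were 100.5 CPM in the control and 41.3 and 52.8 with the hairpins, with none of the 8 passing or at 0. The sums of macrophage and megakaryocyte markers were high in the hairpin 2 library, the one with the high Ccng1 and Bax. These sums were 4.15 and 36.8 CPM in the control, 3.59 and 30.4 with hairpin 1, and 24.4 and 79.3 with hairpin 2. Csf1r (22.5 CPM) and Itga2b (63.9 CPM) made up most of the hairpin 2 sums. There Vcam1, C1qa and Marco were at 0, Adgre1, Cd68 and C1qb were below the control, and Mrc1 was above it. The empty vector library had a macrophage sum of 23.4 CPM. The part of any of these marker lists in the result was not tested.

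**Figure D3:**
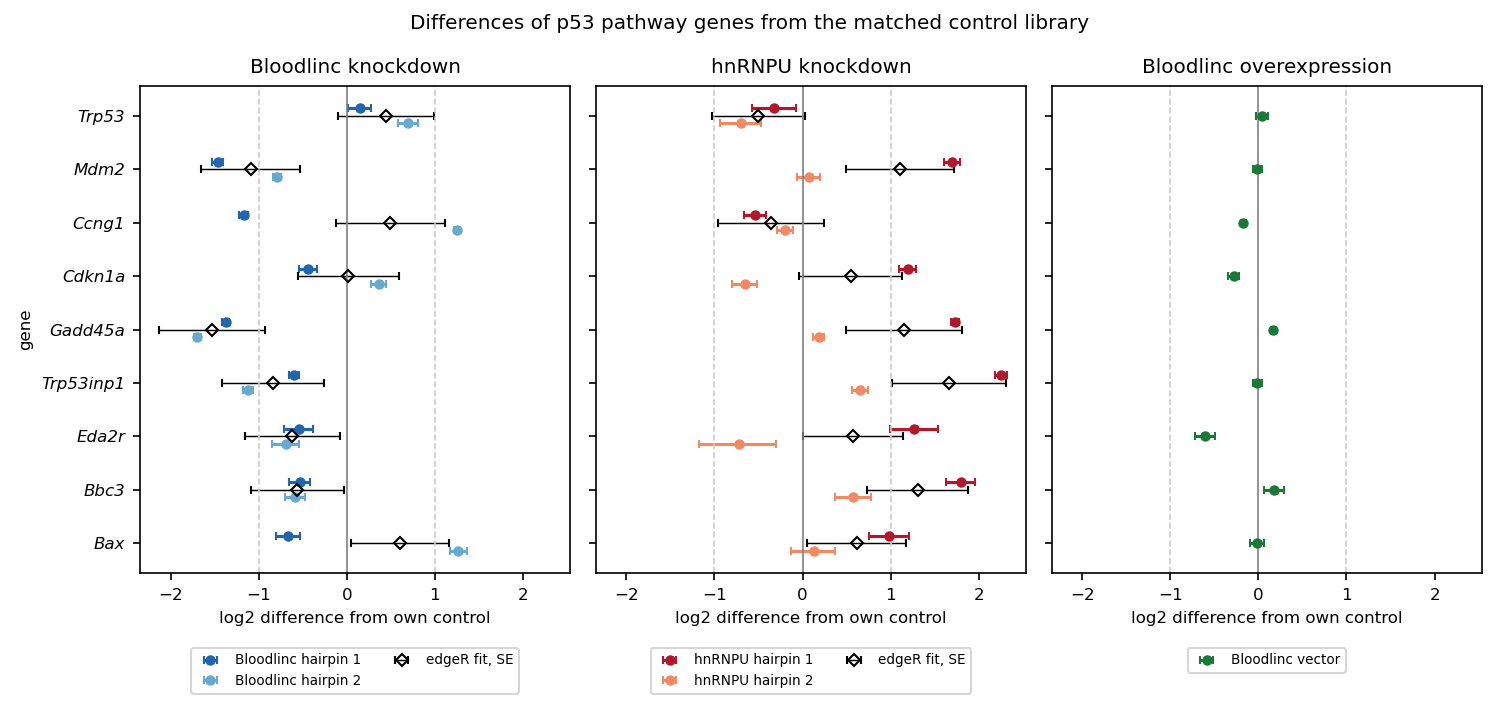
Log2 difference of each gene from its own control library. Filled points are single libraries with 95% counting intervals, open diamonds the edgeR log2 fold change with its SE, and dashed lines mark 2-fold. Gadd45a lies below the control with both Bloodlinc hairpins, and Trp53inp1, Bbc3 and Gadd45a lie above it with both hnRNPU hairpins.

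Knockdown of hnRNPU asked the same of a protein that binds nuclear RNA. With hairpin 1 all 6 of Mdm2, Cdkn1a, Gadd45a, Trp53inp1, Eda2r and Bbc3 were more than 2-fold above the control, and with hairpin 2 none of the 9 was past 2-fold in either direction. Both hairpins were past 2-fold on the same side for none of the 9, where 6.96% of all genes were higher and 8.76% lower. On the higher side with both hairpins were 5 of the 9, namely Mdm2, Gadd45a, Trp53inp1, Bbc3 and Bax, and on the lower side were Trp53 and Ccng1. None of the 9 passed with DESeq2, limma-voom or edgeR's test, which called 0.879% of all genes, 89 higher and 46 lower (126 and 38 with DESeq2's size factors, 130 and 33 with upper quartile scaling). An unadjusted p under 0.05 was reached by 2 of the 9, Trp53inp1 and Bbc3, where 5.03% of all genes were higher and 4.86% lower at that level. Fitted values were above 0 for 7 of the 9 and for 45.7% of all genes. Past 2-fold were 20.5% of all genes on the higher and 28.1% on the lower side with hairpin 1, and 13% and 14.7% with hairpin 2. On the same side of the control with both hairpins were 29.8% (higher) and 42.3% (lower).

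Trp53 was 101 CPM in the hnRNPU control and 81.0 and 62.2 with hairpins 1 and 2. Both were below their own control, yet within the range of the 3 controls. A log2 fold change of -0.50 was fitted (SE 0.53, edgeR adjusted p = 0.819). Of these 3 libraries the control thus held the most Trp53 RNA, as it did for Ccng1, whereas the other 7 genes were highest with hairpin 1.

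Mdm2 stood at 201 CPM with the control hairpin, at 651 with hairpin 1 and at 211 with hairpin 2. Only the first hairpin stood apart, and the second differed from the control by 0.07 on the log2 scale (95% counting interval -0.06 to 0.20). Its fitted log2 fold change was 1.10 (SE 0.61, edgeR adjusted p = 0.573). Ccng1 was 449.7 CPM in the control and 310.3 and 392 with the hairpins. It was the single gene of the 9 with both hairpins below all 3 controls, where 21.9% of all genes lay. Its fitted log2 fold change was -0.36 (SE 0.60, edgeR adjusted p = 0.889).

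Gadd45a stood at 723 CPM with the control hairpin, at 2397 with hairpin 1 and at 819.8 with hairpin 2. Both hairpins exceeded all 3 controls, although the second did so by 0.18 on the log2 scale against its own. The fitted log2 fold change was 1.15 (SE 0.66, edgeR adjusted p = 0.587). Cdkn1a stood at 254 CPM with the control hairpin, at 580.4 with hairpin 1 and at 161 with hairpin 2. The hairpins lay on opposite sides, with log2 differences of 1.19 and -0.66, and the second fell inside the range of the 3 controls. The fitted value of 0.55 (SE 0.58, edgeR adjusted p = 0.819) became -0.66 without hairpin 1. Against the Bloodlinc control hairpin instead, it was 2.05 (edgeR adjusted p = 0.0136), the single setting in which any of the 9 genes passed.

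Trp53inp1 had the largest fitted difference. It stood at 295 CPM with the control hairpin, at 1403 with hairpin 1 and at 463 with hairpin 2. Both hairpins lay above all 3 controls, and the first rested on 2374 counts and the second on 1176. The log2 fold change was 1.66 (SE 0.65, unadjusted p = 0.0105, edgeR adjusted p = 0.307). Bbc3 was 59.99 CPM in the control and 208 and 89.4 with the hairpins, again both above all 3 controls. Its log2 fold change was 1.31 (SE 0.57, unadjusted p = 0.023, edgeR adjusted p = 0.399). With Gadd45a, these made 3 of the 9 genes with both hairpins above all 3 controls, where 16.2% of all genes lay.

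Eda2r stood at 30.5 CPM with the control hairpin, at 73.3 with hairpin 1 and at 18.5 with hairpin 2. The hairpins lay on opposite sides of the control, as for Cdkn1a, with the second resting on 47 counts and a log2 difference of -0.72 (95% counting interval -1.17 to -0.30). The fitted value of 0.57 (SE 0.57, edgeR adjusted p = 0.805) became -0.73 without hairpin 1. Bax stood at 51.3 CPM with the control hairpin, at 102 with hairpin 1 and at 55.9 with hairpin 2, the latter within counting error of the control (log2 difference 0.13, 95% counting interval -0.13 to 0.37). Its fitted value was 0.61 (SE 0.56, edgeR adjusted p = 0.781). The median of the 9 genes was 0.61 and that of all genes -0.09. For each of the 7 genes with a fitted value above 0, the level was higher with hairpin 1 than with hairpin 2. Neutrophil markers moved beside these values, though not all of them alike. The summed level of 8 of them was 1591 CPM in the hnRNPU control, 9254 with hairpin 1 and 3415 with hairpin 2, against 100.5 to 1591 in the 3 controls. None of the 8 was at 0, and Ngp and Ltf passed the test on the higher side. Mpo, Elane and Prtn3 moved little, with fitted log2 fold changes of 0.37, 0.12 and 0.25. Each of these was higher with hairpin 2 than with hairpin 1. Summed macrophage markers were 75.7 and 31.1 CPM with the hairpins and 4.15 to 23.4 in the controls. Csf1r alone held 44.9 and 13 CPM of the hairpin sums. C1qa was at 0 in both hairpin libraries, and Mrc1, C1qb and Marco were also at 0 with hairpin 1. Summed megakaryocyte markers were 55.1 CPM in the hnRNPU control and 102.8 and 70.9 with the hairpins, and endothelial markers 8.45 against 20.7 and 14.2, with 3 of 6 at 0 in either hairpin library. Of the 10 erythroid markers 6 had a fitted value below 0, none passing. Klf1 (446 CPM in the control, 137 and 165 with the hairpins), Tfrc (4713, 1526 and 2108) and Epor (109, 19.5 and 44.5) lay below all 3 controls with both hairpins. Hba-a1 (4011, 9846 and 5317) lay above all 3 with both, and the other erythroid markers did neither. Summed erythroid markers were 33950 CPM in the hnRNPU control, 46880 with hairpin 1 and 27940 with hairpin 2. IDs without a GENCODE match took 32.9% and 23.1% of gene counts in these hairpin libraries, against 0.695% to 1.45% in the others. The part of these markers, of the unmatched IDs and of the low depth of the same pair of libraries, in the result was not tested.

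The effects of both knockdowns were set against each other in the same fit, as the hnRNPU effect minus the Bloodlinc effect. Positive differences were fitted for 7 of the 9 genes, where 38% of all genes had one, and Trp53 and Ccng1 had negative ones. None of the 9 passed with edgeR, DESeq2 or limma-voom, and edgeR called 0.326% of all genes (47 higher and 3 lower). An unadjusted p under 0.05 was reached by 4 of the 9, Mdm2, Gadd45a, Trp53inp1 and Bbc3, all higher, where 2.82% of all genes were higher and 1.29% lower. The difference was 2.68 for Gadd45a (SE 0.90, unadjusted p = 0.00307, edgeR adjusted p = 0.307) and 2.50 for Trp53inp1 (SE 0.86, unadjusted p = 0.00389, edgeR adjusted p = 0.360). It was 2.19 for Mdm2 (SE 0.84, edgeR adjusted p = 0.591) and 1.87 for Bbc3 (SE 0.77, edgeR adjusted p = 0.780). For Gadd45a, Trp53inp1, Mdm2 and Bbc3 the Bloodlinc hairpins lay below their control and the hnRNPU hairpins above theirs. With hnRNPU hairpin 2, however, Mdm2 was within counting error of its control, and Gadd45a lay only 0.18 above it on the log2 scale. The share of all genes with this pattern was not computed, so it is read as no result about these genes. The median difference was 1.19 over the 9 genes and -0.30 over all genes. For Trp53 the difference was -0.95 (SE 0.76), and for Bax 0.02 (SE 0.77), each with an edgeR adjusted p above 0.99. Neutrophil markers lay on the same side in this comparison, with positive differences for 8 of 8 (median 3.004). Ngp, Camp and S100a8 passed (edgeR adjusted p = 0.00402, 0.0229 and 0.0363), and the part of these markers in the result was not tested.

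Overexpression of Bloodlinc left all 9 genes within 2-fold of the empty vector, with 1 library on each side and so no replicate check. Past 2-fold were 0.371% of all genes on the higher and 1.38% on the lower side. On the higher side were 3 of the 9 (51.3% of all genes) and on the lower side 6 (48.6%). Gadd45a was 341 CPM without and 383 with the Bloodlinc vector, and Bbc3 was 28.8 and 32.7. Both were slightly higher, with log2 differences of 0.17 (95% counting interval 0.14 to 0.20) and 0.18 (0.07 to 0.29). Cdkn1a was 104 and 85.8 CPM, a log2 difference of -0.28 (-0.34 to -0.22). Eda2r, at 36.2 and 23.9 CPM, showed the widest gap, with a log2 difference of -0.60 (-0.72 to -0.49). Ccng1 was 472 and 419 CPM, also lower with the vector by more than counting error. Trp53 (80.0 and 82.4 CPM), Mdm2 (145 and 144), Trp53inp1 (141 and 139.6) and Bax (59.3 and 58.5) had counting intervals that include 0. With the Bloodlinc vector, Eda2r, Ccng1 and Cdkn1a also lay below all 3 controls. Cdkn1a, at 85.8 CPM, was close to the 89.7 CPM of the Bloodlinc control hairpin. Mdm2 and Trp53inp1 also lay below all 3, within counting error of the empty vector, the lowest control for both. The share of all genes below all 3 controls was not computed here, so these positions are read as no result about these genes. The intervals cover counting error only.

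After the values were seen, Eda2r was found to be the one gene of the 9 that lay lower than the matched control with both Bloodlinc hairpins, with the Bloodlinc vector and with hnRNPU hairpin 2 alike. Opposite manipulations of Bloodlinc therefore gave values on the same side for it. The same held for Mdm2 and Trp53inp1 (lower) and Trp53 (higher), whose vector differences were within counting error. Gadd45a and Bbc3 had the other pattern, lower with both Bloodlinc hairpins and higher with the vector, by 0.17 and 0.18 on the log2 scale. The shares of all genes with these patterns were not computed, so they are read as no result about these genes.

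A wider set of 74 genes around p53 gave the setting for the 9. Of these, 67 passed the count filter and 0 passed edgeR's test in either knockdown or in their difference, with 2 at an unadjusted p under 0.05 in the Bloodlinc knockdown, 9 in the hnRNPU knockdown and 3 in the difference. Over all genes 3.99%, 9.89% and 4.11% reached that level, so the counts of 2, 9 and 3 of 67 are read as no result about these genes. The 33 other p53 targets tested had a median log2 fold change of 0.22 in the Bloodlinc knockdown, with 22 of 33 above 0, beside a median of 0.06 and 53.5% above 0 over all genes. In the hnRNPU knockdown their median was 0.41, with 23 of 33 above 0, beside -0.09 and 45.7% over all genes. Their median difference between the knockdowns was -0.04, and that of all genes -0.30.

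Other targets of cell death were above 0 for 9 of 10 genes in the Bloodlinc knockdown (median 0.21) and for 8 of 10 in the hnRNPU knockdown (median 0.42), shares to be set beside the same 53.5% and 45.7%. Perp, a membrane protein of apoptosis, was 1.54 CPM in the Bloodlinc control, against 1.31 and 10.8 with its hairpins. The same hairpin 2 library thus held the high value, as for Bax and Ccng1. In the hnRNPU knockdown Perp was 4.22 CPM in the control and 15.96 and 7.49 with the hairpins, and Pmaip1, which encodes NOXA, was 5.59 against 19.5 and 6.70. Neither passed.

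Cell cycle targets had medians of 0.10 and 0.00. Zmat3, an RNA-binding p53 target, was 20.4 CPM in the Bloodlinc control and 18.3 and 52.0 with the hairpins, and in the hnRNPU knockdown it was 21.4 against 55.0 and 31.9. Plk2, a polo-like kinase, was 7.84 CPM against 6.62 and 24.5, and 8.87 against 23.6 and 9.45. Both followed the layout of Bax, high with Bloodlinc hairpin 2 and with hnRNPU hairpin 1. Metabolic targets had medians of 0.56 and 1.22. Ak1, adenylate kinase 1, was 2.99 CPM in the hnRNPU control, 31.3 with hairpin 1 and 3.15 with hairpin 2 (log2 fold change 2.49, SE 0.86, edgeR adjusted p = 0.195). Ddit4, an inhibitor of mTORC1 signalling, was 16 CPM against 55.0 and 26 (edgeR adjusted p = 0.435). DNA repair targets had medians of 0.23 and 0.36. Xpc, a damage sensor of nucleotide excision repair, was above its control with all 4 hairpins, at 5.95 CPM against 9.21 and 15.8 and at 11.9 against 21.3 and 21.3. Polh, a translesion polymerase, was 77.3 CPM in the hnRNPU control against 19.5 and 43.7 (edgeR adjusted p = 0.355).

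Regulators of p53 had medians of -0.28 and -0.13 over 15 genes tested. Trp53bp1, which encodes the damage response protein 53BP1, was 66.3 CPM in the hnRNPU control and 18.9 and 28.0 with the hairpins (log2 fold change -1.49, SE 0.53, edgeR adjusted p = 0.220). Usp7, a deubiquitinase of MDM2 and p53, was 487 CPM against 169 and 272 (edgeR adjusted p = 0.499). With both, the 2 hnRNPU hairpins lay on the lower side. Atm, the kinase that signals DNA breaks to p53, was 31.8 CPM in the Bloodlinc control and 57.9 and 71.5 with the hairpins, and Rpl11, a ribosomal protein that can bind MDM2, was 121 against 87.8 and 60.9. Neither passed, and both Atm values were close to the 62.1 CPM of the empty vector.

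The BCL-2 family, the partners of BAX and PUMA, had medians of 0.37 and -0.33 over 10 genes. Bid, a BH3-only activator, was 25.6 CPM in the Bloodlinc control and 98.8 and 43.0 with the hairpins (log2 fold change 1.47, SE 0.58, edgeR adjusted p = 0.826). Bcl2l1, which encodes the survival protein BCL-XL of late erythroid cells, was 701 CPM against 468 and 277, and in the hnRNPU knockdown it was 373 against 722 and 347. Its layout in the hnRNPU knockdown was that of Cdkn1a, above the control with hairpin 1 and below it with hairpin 2. Among CDK inhibitors other than p21, Cdkn2c (p18) was 76.6 CPM in the hnRNPU control and 18.3 and 33.9 with the hairpins (log2 fold change -1.54, SE 0.53, edgeR adjusted p = 0.191). In the Bloodlinc knockdown it was 106 CPM against 45.7 and 66.5. Cdkn1b (p27) was 162 CPM in the hnRNPU control and 330 and 195 with the hairpins. Cdkn2c and Cdkn1b thus lay on opposite sides of the hnRNPU control. Cdkn2b (p15), named after its values were seen, had the smallest adjusted p of the wider set in the hnRNPU knockdown (edgeR adjusted p = 0.0518), but it rested on 3 control counts and on 3 and 15 counts with the hairpins (0.0787, 1.77 and 5.91 CPM). Trp53inp2, a relative of Trp53inp1, was 17.3 CPM in the hnRNPU control, 70.9 with hairpin 1 and 12.6 with hairpin 2, and Ccng2, the relative of Ccng1, was 59.99 against 151 and 68.9. None passed.

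**Figure D4:**
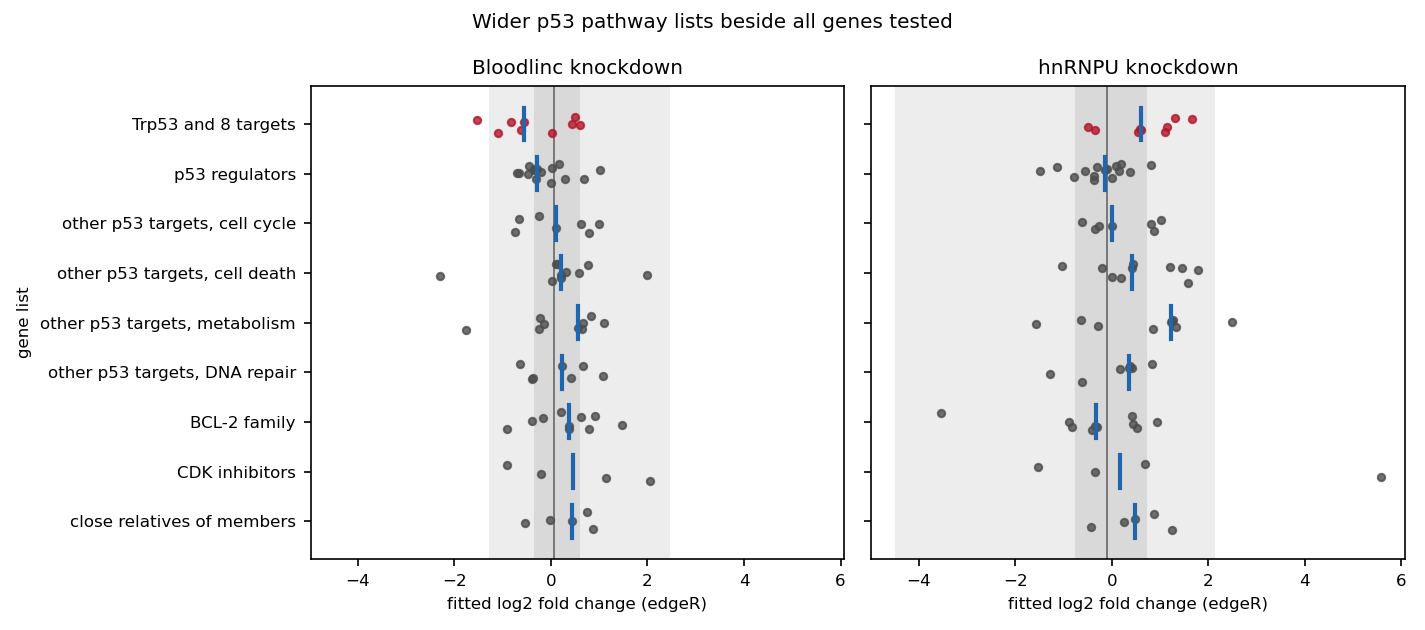
EdgeR log2 fold changes of the 9 genes and of each wider p53 list, 1 point per gene, in the 2 knockdowns, with the median of each list and the median of all genes tested. In the Bloodlinc knockdown the median of the 9 genes is -0.56, and in the hnRNPU knockdown it is 0.61.

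Across the 8 libraries, the log2 CPM of Cdkn1a was correlated with that of the 8327 protein-coding genes of at least 5 CPM, as a description. The genes most like it were Eloa (Pearson's r 0.988), Ifitm3 (0.969) and Pcsk7 (0.955). Each was highest with hnRNPU hairpin 1 and lowest with Bloodlinc hairpin 1, as Cdkn1a was, and Ifitm3 reached 44.9 CPM in the former against 4.07 in its control. Among the other 8 genes, r with Cdkn1a was 0.847 for Trp53inp1, 0.836 for Gadd45a, 0.833 for Bbc3, 0.697 for Mdm2 and 0.670 for Eda2r. It was 0.443 for Bax and -0.069 for Ccng1, the pair whose highest value was with Bloodlinc hairpin 2. Trp53 was most like Coa3 (0.952), Egln2 (0.938) and Rexo1 (0.925), and its r with the other 8 genes ran from -0.094 for Mdm2 to 0.553 for Cdkn1a. The 8 points include 3 controls that differ among themselves and a single shallow library at the top of most genes, so these values describe the layout of the libraries.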

How the data were processed

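Strand-specific libraries (dUTP marking) were sequenced on a HiSeq2000, per the labels' protocols. TopHat2 2.0.11, mm9 and HTSeq are named in the submitters' processing notes, while the annotation release and strand setting are not given in the sources used here. The authors deposited raw counts per Ensembl gene ID for each library. The 5 HTSeq summary entries were left out of library sizes. They held 41723464 to 79965196 counts per library. GENCODE M21 symbols matched 87.4% of IDs.

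All 8 libraries, in 6 groups, entered a single fit with edgeR 4.0.16 under R 4.3.3, with TMM scaling, filterByExpr and quasi-likelihood tests. Each single control was assumed to vary like the hairpin pairs. The fit had 2 residual degrees of freedom and a prior of 397, so the dispersion of a gene follows nearly entirely the trend over genes. The SE is the log2 fold change divided by the square root of F. P-values were adjusted by Benjamini-Hochberg across the 15355 genes, with a threshold of 0.05. Log2 differences of single libraries used a prior count of 2, with exact conditional binomial 95% intervals of the count ratio, which cover counting error only. The overexpression pair had no test, and 2-fold marked a difference. The fit was tested on simulated data. The 9 genes and all lists were chosen with earlier results of these data known. From each wider list the 2 genes with the largest log2 fold change and a mean of at least 5 CPM were eligible for naming. Alternatives were DESeq2 1.42.0, limma-voom (limma 3.58.1), other scalings, filters, controls and prior counts, each hairpin library left out, and 3 settings added after seeing the data (both hnRNPU hairpin libraries left out, thinning to the shallowest library, and a replicate block).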

Additional observations from a re-analysis of the deposited data

How the results depend on the processing

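The number of the 9 genes passing stayed at 0 in every alternative run for both knockdowns and their difference, except that 1 (Cdkn1a, log2 fold change 2.05) passed in the hnRNPU knockdown against the Bloodlinc control hairpin. With the Bloodlinc or the hnRNPU control hairpin in place of the empty vector, 2 of the 9 were past 2-fold in the overexpression comparison. Counts over all genes moved more, and the cause was not tested. The Bloodlinc knockdown had 19 calls, against 5 with DESeq2, 1043 against the other control hairpin, 0 to 63 with a hairpin library left out, and 0 with voom, pooled controls, its 3 libraries alone, the hnRNPU hairpin libraries left out, or thinning. The hnRNPU knockdown had 135, against 9 with voom, 2340 against the other control, 7 with pooled controls, 7 to 121 with a hairpin library left out and 16 after thinning. The difference had 50, against 22 with DESeq2, 3 with voom, 6 to 37 with a library left out and 1 after thinning. The overexpression pair had 269 genes past 2-fold, against 615 and 60 at prior counts of 0.5 and 5, and 7435 and 3598 with the Bloodlinc and hnRNPU control hairpins.

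Directions of single genes turned as follows. In the Bloodlinc knockdown, Bax ran from -0.67 (without hairpin 2) to 1.29, Ccng1 from -1.17 (without hairpin 2) to 1.27 and Cdkn1a from -0.44 (without hairpin 2) to 0.38 when a hairpin library was left out. Cdkn1a was also -0.016 with DESeq2 or its size factors, -0.041 with voom, -1.48 against the other control and -0.72 with pooled controls, and Trp53 was -0.82 and -0.37 in those last settings. In the hnRNPU knockdown, Cdkn1a ran from -0.66 to 1.19 and Eda2r from -0.73 to 1.26, the lower value of each being without hairpin 1, and Trp53 was 0.76 against the other control. In the difference, Bax was -0.029 without the filter and ran from -0.70 (without Bloodlinc hairpin 1; -0.51 without hnRNPU hairpin 1) to 1.29. Ccng1 ran from -1.65 to 0.83 (without Bloodlinc hairpin 2), Cdkn1a from -0.70 to 1.17 and Eda2r from -0.13 to 1.88, the last pair lowest without hnRNPU hairpin 1. DESeq2's size factors and upper quartile scaling moved the median of all genes in the hnRNPU knockdown by 0.12 and 0.16 on the log2 scale, with 7 of the 9 genes above 0 under all 3 scalings.

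Hairpin numbers name sequences against different targets and were not taken to pair libraries. Deviations from the group means of the 2 libraries numbered 1 had r = -0.073 across genes, which are not independent replicates. With the number as a replicate block, 0, 61 and 16 genes passed in the Bloodlinc knockdown, the hnRNPU knockdown and their difference, and none of the 9. The hnRNPU hairpin libraries are the shallowest, and floors of 1.77 and 1.18 CPM limit low genes there.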

Other observations

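Trp53cor1, the long noncoding RNA gene beside Cdkn1a that is known as a p53 target, was looked at after the values of the 9 genes were seen. It was 4.41 CPM with the Bloodlinc control hairpin and 5.57 and 5.22 with Bloodlinc hairpins 1 and 2. It was 5.40 CPM with the hnRNPU control hairpin, 18.3 with hnRNPU hairpin 1 (31 counts) and 9.85 with hairpin 2 (25 counts). The empty vector and Bloodlinc vector libraries held 1.55 and 1.94 CPM. Both hnRNPU hairpins thus lay above all 3 controls, on few counts, where 16.2% of all genes lay. Trp53inp1, Bbc3 and Gadd45a did so too. With both Bloodlinc hairpins, however, those genes were below their control and Trp53cor1 was above it. The pseudogene Trp53-ps had 0 counts in all 8 libraries, so its ID took no reads beside Trp53.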
